A study of Homo sapiens with 3 samples.

Results

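The cyclin-dependent kinase (CDK) inhibitors and the D-type cyclins are described here in single cells of chambered cardiac organoids (CCOs). The 10 genes were taken by name: CDKN1A, CDKN1B and CDKN1C of the CIP/KIP family, CDKN2A, CDKN2B, CDKN2C and CDKN2D of the INK4 family, and the cyclins CCND1, CCND2 and CCND3. They are 10 of the 32738 genes of the deposited table, and each had a UMI in at least 102 of the kept cells. The CCOs were grown from H7, a human embryonic stem cell line, and their cells were profiled at D8, D14 and D21 in 1 droplet library per day. Each captured mRNA is counted once by its unique molecular identifier (UMI) and assigned to a cell by its barcode. All cells had been differentiated with the Wnt activator CHIR99021 and then the Wnt inhibitor IWP-2, and were aggregated in Matrigel shortly before D8. Until D14 the CCOs were kept in a growth medium holding thrombin, cardiotrophin-1, EGF, FGF-2, Wnt-3A and EDN1, and then in RPMI with B27 in a spinner flask. D21 thus differs from the earlier days in medium and vessel. A day and its library are the same thing in this design, so days were compared without a test, and the 95% intervals cover counting error only.

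Cyclin D binds CDK4 or CDK6 in early G1, and the complex phosphorylates the retinoblastoma protein, which frees E2F factors to turn on genes of DNA replication. INK4 proteins bind CDK4 and CDK6 and keep cyclin D away from them, while CIP/KIP proteins bind whole cyclin-CDK complexes and block mainly those of CDK2. Cardiomyocytes (CMs) divide in the fetal heart and largely leave the cell cycle around birth, and inhibitors of both families are known from that period. MKI67, which encodes the proliferation antigen Ki-67, is transcribed in cycling cells, so a MKI67 UMI marks a cell as likely to be in cycle, although its absence in a droplet does not mark a cell as resting.

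The 8188 cells kept comprised 2657 of D8, 3585 of D14 and 1946 of D21, at medians of 15316, 12282 and 14105.5 UMIs per cell. At D21 the mitochondrial limit of 10% removed 1982 barcodes that passed the other limits, against 11 at D8. Between 9 and 14 cell barcode sequences were shared by any 2 libraries. Clustering gave 20 clusters. The 10 genes, MKI67, Seurat's S and G2/M gene lists and lists such as the p53 targets and stress genes were left out of its variable genes. Cell cycle genes outside those lists were not left out. CM-like cells comprised 503 of D8 (nearly all in cluster 5), 1131 of D14 (nearly all in cluster 1) and 538 of D21 (clusters 6 and 19), and these clusters met 6 to 8 of the 8 CM markers, so each day's CM-like cells came from clusters of their own. Fibroblast-like, endothelial-like, mesendoderm-like and endoderm-like cells were named in the same way, 4 clusters with all 8 dividing-cell markers (7, 9, 15 and 16) were called dividing, and 6 clusters stayed unnamed. The mesendoderm-like clusters 11 and 13 had PRSS1, TTR, HHEX and FOXA2 among their leading genes. The authors used FOXA2 for cells they called mesendodermal, and TTR and FOXA2 for definitive endoderm, so the name does not separate the 2. Levels are the UMIs of a gene per 1000000 UMIs summed over the cells of a group (CPM). A 3′ UMI counts molecules and does not scale with transcript length.

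CDKN2C, CDKN2D and CDKN1B were the inhibitors with the largest log2 ratios of cells with over cells without MKI67 at D21. Their promoters are shown because their levels correlated, to differing degrees, over the cell groups described below. The sequences are the 250 bases before a single transcription start per gene, the first listed in RefSeq (GRCh38.p14), printed 5′ to 3′ on the gene's strand. Other starts, where a gene has them, were not searched. They lie at chr1:50960495-50960744 on the plus strand for CDKN2C, chr19:10568980-10569229 on the minus strand for CDKN2D and chr12:12717118-12717367 on the plus strand for CDKN1B. Capitals mark CCAAT, the letters bound by NF-Y.
CDKN2C: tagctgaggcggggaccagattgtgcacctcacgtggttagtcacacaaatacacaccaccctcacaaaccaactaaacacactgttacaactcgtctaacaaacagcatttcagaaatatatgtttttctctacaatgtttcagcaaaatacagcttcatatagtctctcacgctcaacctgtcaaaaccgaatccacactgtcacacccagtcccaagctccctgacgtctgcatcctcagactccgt
CDKN2D: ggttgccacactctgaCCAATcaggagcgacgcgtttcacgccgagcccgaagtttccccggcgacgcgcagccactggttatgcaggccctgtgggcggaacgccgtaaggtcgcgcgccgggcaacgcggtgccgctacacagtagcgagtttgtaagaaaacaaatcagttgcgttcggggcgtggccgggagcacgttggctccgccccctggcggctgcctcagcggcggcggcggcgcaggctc
CDKN1B: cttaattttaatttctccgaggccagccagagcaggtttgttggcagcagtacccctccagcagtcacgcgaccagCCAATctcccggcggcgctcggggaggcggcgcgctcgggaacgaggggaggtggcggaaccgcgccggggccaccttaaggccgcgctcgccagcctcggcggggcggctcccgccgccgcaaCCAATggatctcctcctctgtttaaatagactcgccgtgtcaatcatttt
CCAAT was searched on both strands, as were the E2F letters TTTGGCGC, TTTCCCGC, TTTGCCGC and TTTCGCGC and the CHR letters TTTGAA, and no 2 of these overlapped in the 3 windows. CCAAT occurred once in the CDKN2D window, 234 to 230 bases before the start, and at 174 to 170 and 50 to 46 bases before the start of CDKN1B. Over 35116 RefSeq promoters of the same length, 32% held CCAAT, 2.79% an E2F match and 13.3% a CHR match. The CDKN2C window held none of these letters in this stretch, and 7 of the 10 genes had an entry in the promoter table. CDKN1C, CCND1 and CCND2 were not among them.

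**Figure D1:**
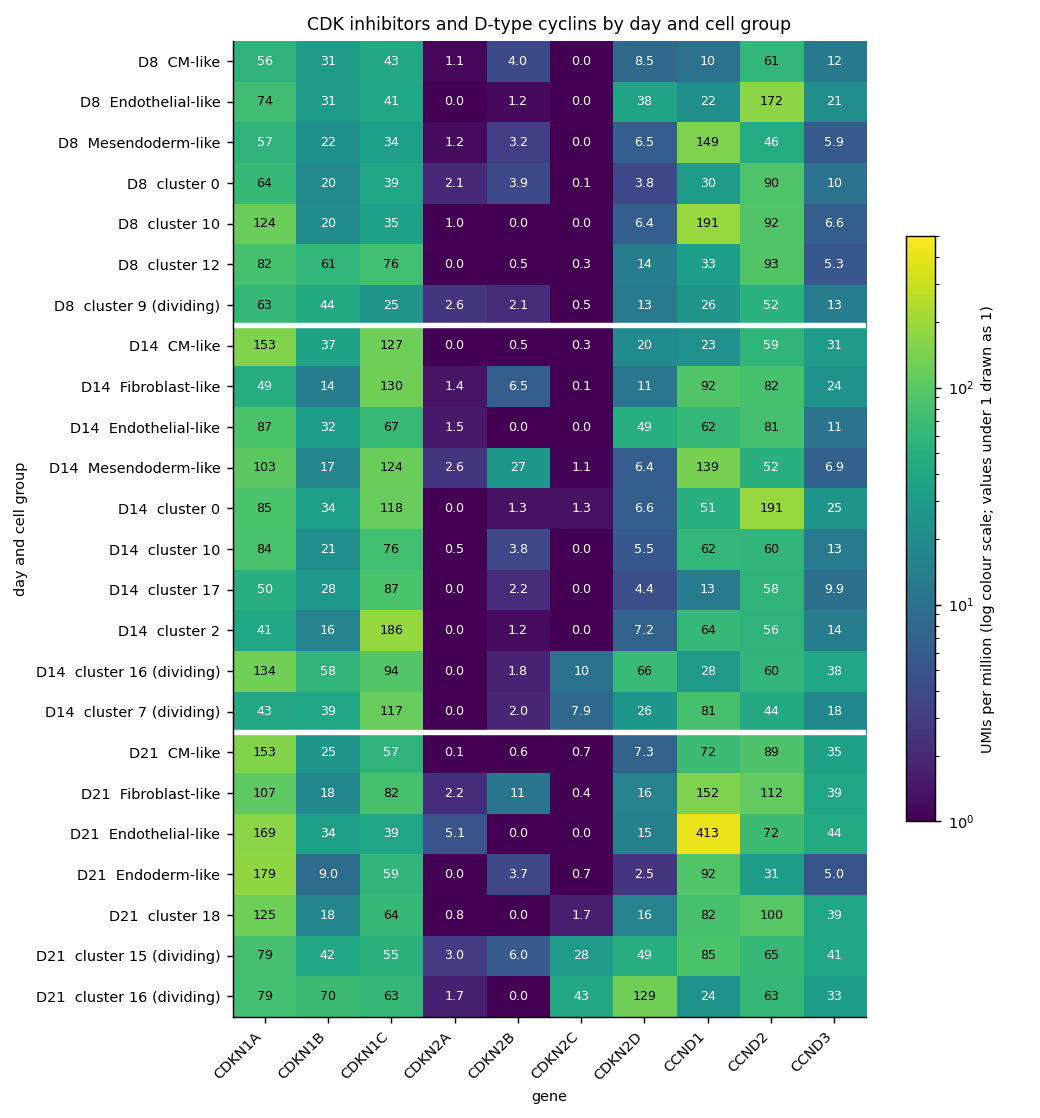
Level of each gene (columns, CPM, number printed in each cell, log colour scale) in each day and cell group of at least 30 cells (rows). CDKN2C is above 2 CPM only in dividing clusters of D14 and D21, CDKN1C has its highest levels at D14, and CCND1 reaches 412.8 in D21 endothelial-like cells.

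CDKN1A, CDKN1C, CCND1 and CCND3 were the genes that passed 2-fold between days in CM-like cells once 10 CPM was added, CCND3 only at the threshold itself. From here on a gene is said to have risen or fallen only where its level differed 2-fold or more after 10 CPM was added to both levels, among genes at 10 CPM or more in either group. From D8 to D14, 7 of the 10 genes passed that limit on low levels and 2 of the 7 rose, CDKN1A and CDKN1C, where 4.98% of all 9075 genes rose and 0.97% fell. Between D14 and D21, 7 genes passed, CCND1 rose and CDKN1C fell, where 2.83% of 9148 genes rose and 7.23% fell. Set against D8, D21 had 3 of 6 genes higher, CDKN1A, CCND1 and CCND3, where 7.06% of 8955 genes rose and 7.58% fell. The genes' median log2 ratio with 10 CPM added was 0.70 from D8 to D14, 0.00 from D14 to D21 and 0.74 from D8 to D21. Over all genes tested the medians were 0.04 from D8 to D14 and -0.09 from D8 to D21.

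CDKN1A encodes the CIP/KIP inhibitor that p53 induces. Its level in CM-like cells was 56.3 CPM (51.3 to 61.7) at D8, 153 (147 to 160) at D14 and 153 (145 to 163) at D21. The D14 and D21 levels could not be told apart (log2 ratio 0.00, interval -0.10 to 0.10), and both were above D8 by 1.45 on the log2 scale, with intervals of 1.30 to 1.59 at D14 and 1.29 to 1.61 at D21. The transcript was unevenly spread over cells. At D14 the 114 CM-like cells with most CDKN1A UMIs held 58.7% of them, and at D21 a single cell had 106 UMIs, 9.54% of all in its group. With the top cell left out of each group, the log2 ratios with 10 CPM added were 1.32 from D8 to D14 and 1.22 from D8 to D21.

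Across cell groups, CDKN1A was led by cluster 10 at D8 (124 CPM), an unnamed cluster with SFRP2, POU5F1 and SOX2 among its leading genes. CM-like cells had the lowest level of the 7 groups at D8, where every group below cluster 10 overlapped its neighbour in rank. Their interval overlapped those of mesendoderm-like cells (56.9) and of endothelial-like cells (74.0, interval 56.9 to 94.7). At D14 they had the highest level of the 10 groups, overlapping cluster 16 (134). At D21 endoderm-like cells (179 CPM), endothelial-like cells (169) and CM-like cells (153) stood highest, with overlapping intervals between neighbours. In fibroblast-like cells CDKN1A was 48.5 CPM (43.6 to 53.9) at D14 and 107 (101 to 113) at D21, a log2 ratio of 1.14 that fell just short of 2-fold once 10 CPM was added. CM-like cells at D14 exceeded fibroblast-like cells of that day by 1.66 on the log2 scale, past 2-fold, as did 7.02% of 9407 genes. The dividing clusters of D21 had the lowest CDKN1A of that day, at 79.1 CPM in cluster 15 and 78.9 in cluster 16.

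Of the 14 other p53 targets listed, 13 were tested in CM-like cells from D8 to D14 and 1 rose, BTG2, an antiproliferative factor, at 38.5 CPM and 129 CPM. BAX, which promotes apoptosis, was 213 CPM at D8, 125 at D14 and 91.4 at D21, and it fell from D8 to D21. The median log2 ratio of the list from D8 to D14 was 0.09, beside 0.04 over all genes. Summed over the 14 listed genes, CM-like cells had 681 CPM at D8, 767 at D14 and 621 at D21.

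CDKN1C encodes the CIP/KIP inhibitor expressed from the maternal copy of an imprinted region, and it is known in the embryonic heart. In CM-like cells it measured 42.8 CPM (38.4 to 47.5) at D8, 127 (121 to 133) at D14 and 57.4 (52.1 to 63.2) at D21. The D14 level stood apart from both other days, 1.57 above D8 on the log2 scale (1.40 to 1.74) and with D21 below it by a log2 ratio of -1.14 (-1.30 to -0.99). With 10 CPM added the ratio was -1.02, and with TMM factors, which moved the median of all genes from -0.13 to 0.05, it was -0.81 and no longer past 2-fold. Outside CMs, several groups also had more CDKN1C at D14 than at the other day on which they were held. Of these, only endothelial-like cells were held at all 3 days, so a D14 maximum could not be read in the others. Mesendoderm-like cells rose from 33.5 CPM in cluster 11 to 124.5 mostly in cluster 13 (log2 ratio 1.89, interval 1.67 to 2.12), and CDKN1C and CDKN2B were the 2 of 6 genes tested that rose there, where 2.52% of 8657 genes did and 1.39% fell.

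Unnamed cluster 0 went from 38.9 CPM at D8 to 118 at D14, and cluster 10 from 34.9 to 75.6. Endothelial-like cells had 41.1, 67.0 and 39.2 CPM at D8, D14 and D21, with intervals that overlapped between neighbouring days. Fibroblast-like cells were at 130.5 CPM at D14 (cluster 4) and 82.5 at D21 (cluster 3). The highest level of any group was that of unnamed cluster 2 at D14, 185.5 CPM (177.8 to 193.5), a cluster led by MFAP4, CTNNA2 and HAND1. At D14 the lowest group, endothelial-like cells, was nevertheless above all D8 groups but cluster 12.

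**Figure D2:**
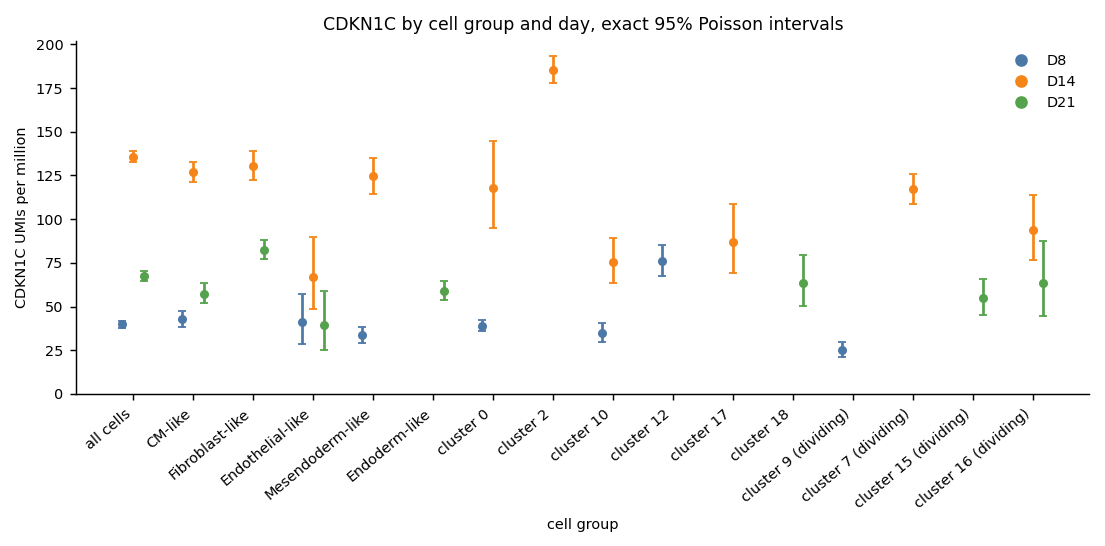
CDKN1C in CPM (vertical axis, from 0) for each cell group with at least 30 cells at D8, D14 and D21 (colours), with exact Poisson 95% intervals. In every group present at both D8 and D14 the D14 point is higher, and CM-like, fibroblast-like and endothelial-like cells are lower at D21 than at D14.

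Genes of the dissociation and stress response moved with CDKN1C between these libraries. The 10 genes of that list summed in CM-like cells to 579, 1521 and 966 CPM on the successive days, and from D8 to D14 6 rose and 1 fell of 10 tested. FOSB went from 7.80 to 88.2 CPM and JUNB from 59.1 to 215. Over 25 day-by-cluster groups, FOSB was also the gene whose log2 level correlated best with CDKN1C among 5607 genes (Pearson r = 0.82), followed by BAMBI (0.78) and JUND (0.78), with the groups of a day sharing a library. Among CM-like cells with 0 FOSB UMIs after thinning to 4000 UMIs, CDKN1C was 42.5 CPM (38.1 to 47.2) at D8 in 490 cells, 121.5 (115.3 to 128) at D14 in 864 cells and 57.8 (52.0 to 64.1) at D21 in 459 cells. In those with 1 or more it was 54.05 (27.9 to 94.4) at D8 in 13 cells, 146 (133.2 to 159.7) at D14 in 267 cells and 55.2 (41.96 to 71.4) at D21 in 79 cells. At D14 the cells with FOSB were thus higher, with intervals that did not overlap. The cells at 0 are most of the group, a thinned count of 0 does not mark a cell as free of FOSB, and the part of stress genes in the CDKN1C levels was not tested.

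KCNQ1OT1, the long RNA that silences the paternal copy of the CDKN1C region, had 360 CPM at D8, 417 at D14 and 113 at D21 in CM-like cells and fell from D14 to D21 by 1.88 on the log2 scale. PHLDA2 and SLC22A18, other imprinted neighbours, did not pass the 2-fold rule between successive days, at 16.7 and 12.4 CPM at D8 and D14 for PHLDA2 and at 29.0 and 14.5 CPM at D14 and D21 for SLC22A18.

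CDKN1B, the CIP/KIP inhibitor degraded through SKP2 and CKS1B as cells enter S phase, varied less over time. CM-like cells had 31.0 CPM (27.3 to 35.0) at D8, 36.9 (33.9 to 40.1) at D14 and 25.4 (21.9 to 29.4) at D21, all within 2-fold of each other. Between groups it ranged more widely, and its top groups were unnamed cluster 12 at D8 (60.6 CPM) and dividing cluster 16 at D14 (58.4) and D21 (70.3). Its lowest level was in endoderm-like cells, at 9.03 CPM (7.01 to 11.4). CKS1B was 92.9, 67.2 and 57.3 CPM in CM-like cells at D8, D14 and D21 and SKP2 14.3, 10.6 and 4.14, and neither passed the 2-fold rule between any days.

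Of the INK4 genes, CDKN2A and CDKN2B were near the limit of detection in most groups. CDKN2A, whose locus encodes the INK4 inhibitor and the p53 activator ARF, which these counts do not separate, never exceeded 5.12 CPM, a level resting on 3 UMIs in D21 endothelial-like cells. It had 9 UMIs in CM-like cells at D8, 0 at D14, which allows up to 0.200 CPM by the limit of 3 counts that a count of 0 allows, and 1 at D21. CDKN2B, an INK4 gene induced by TGF-beta, had 4.02 CPM (2.77 to 5.65) in CM-like cells at D8, 0.467 (0.188 to 0.963) at D14 and 0.552 (0.150 to 1.41) at D21. The D8 interval lies above the others, at levels below the 10 CPM limit. The sources used here do not say whether strand was used in counting, and UMIs of CDKN2B and of the antisense RNA that crosses it, or of KCNQ1OT1 and KCNQ1, cannot be told apart without it.

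CDKN2B was higher in other lineages. In mesendoderm-like cells it rose from 3.15 CPM at D8 to 26.8 (22.3 to 32.0) at D14, a log2 ratio of 3.09 (2.41 to 3.83). Those 125 UMIs came from 30 of 203 cells, and 7 cells with 5 or more UMIs held 68% of them. Fibroblast-like cells had 6.497 CPM at D14 and 11.3 at D21. CM-like cells at D21 were past 2-fold below them (0.552 against 11.3 CPM), the only 1 of 8 genes tested that was, where 9.37% of 8873 genes were lower and 8.25% higher.

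CDKN2C and CDKN2D, the INK4 genes most often seen during development, were highest in the dividing clusters. CDKN2C had 0 UMIs in CM-like cells at D8, which by the same limit of 3 counts allows up to 0.366 CPM, and 5 UMIs each at D14 (0.334 CPM) and D21 (0.690 CPM). Outside the dividing clusters its highest level in any group was 1.67 CPM. In the dividing clusters it measured 0.525 CPM at D8 (cluster 9, 3 UMIs), 7.89 in cluster 7 and 10.0 in cluster 16 at D14, and 28.4 (21.5 to 36.7) in cluster 15 and 42.9 (27.8 to 63.3) in cluster 16 at D21. The dividing clusters of each later day thus stood above those of the day before, with intervals that did not overlap between days.

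Among the dividing clusters CDKN2D was lowest at D8 and highest in cluster 16 at D21, and it was also read elsewhere. It was 13.1 CPM in cluster 9 at D8, 26.0 in cluster 7 and 65.7 in cluster 16 at D14, and 48.8 in cluster 15 and 129 (101 to 161) in cluster 16 at D21. Endothelial-like cells had the highest level at D8 (37.6 CPM) and the highest of the non-dividing groups at D14 (48.8), and fell to 15.4 CPM at D21 by 1.67 on the log2 scale (interval -2.92 to -0.57). In CM-like cells it was 8.53 CPM (6.65 to 10.8) at D8, 19.97 (17.8 to 22.4) at D14 and 7.32 (5.48 to 9.57) at D21. The D14 interval lies above both others, and the differences were within 2-fold once 10 CPM was added.

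Over the 25 day-by-cluster groups the log2 levels of CDKN2C and CDKN2D correlated at r = 0.76, those of CDKN1B and CDKN2D at 0.69, and those of CDKN1B and CDKN2C at 0.57. With MKI67, CDKN2C correlated at 0.73, CDKN1B at 0.54 and CDKN2D at 0.52. CDKN2D was most like APOLD1 (0.82), PHF19 (0.82) and ODF2 (0.80), and CDKN1B most like PHF19 (0.79), RHEB (0.78) and KPNB1 (0.75). CDKN1A was most like REEP5 (0.79), NCOA4 (0.71) and ALAS1 (0.70), and its r with MKI67 was -0.12. The groups of a day share a library and its depth, so these values describe the groups only.

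Cells with at least 1 MKI67 UMI numbered 560 at D8, 629 at D14 and 250 at D21. They were deeper than the others, with medians of 22736, 16465 and 16578 UMIs against 14187, 11818 and 13694, so levels are given per UMI. The 8 dividing-cell markers, which do not include MKI67, summed to 3874, 4304 and 3210 CPM in these cells. In the others they summed to 491.9, 243.4 and 114.5 CPM. CDKN2C came mostly from these cells at D14 and D21. Of its UMIs, 3 of 5 at D8, 65 of 71 at D14 (91.5%, exact interval 82.5 to 96.8) and 88 of 100 at D21 (88%, 80.0 to 93.6) were in cells with MKI67, which held 28.9%, 22.7% and 14.2% of the UMIs of all genes. In cells without MKI67 its level was at most 0.453 CPM, at D21.

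By the 2-fold rule, 2 of 8 genes tested were higher in cells with MKI67 at D21, CDKN2C and CDKN2D, where 3.15% of 8784 genes were higher and 1.09% lower. At D8 and D14 none of the 7 tested was, beside 2.03% of 8493 genes higher at D8 and 2.8% of 9216 at D14, with 0.212% and 0.749% lower. CDKN2C was at 20.1 CPM with MKI67 and 0.453 without at D21, a log2 ratio of 5.47 (4.59 to 6.48). At D14 it was at 5.69 and 0.155 CPM, a log2 ratio of 5.20 (4.00 to 6.70) below the limit on low levels. CDKN2D was 10.4 against 6.80 CPM at D8, 22.9 against 13.3 at D14 and 45.4 against 9.84 at D21, so the log2 ratio was 0.62, 0.79 and 2.20 on the respective days. CDKN1B was 35.0 against 25.9, 34.2 against 24.5 and 39.4 against 17.2 CPM, with log2 ratios of 0.44, 0.48 and 1.19 whose intervals all lie above 0.

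CDKN2C, CDKN2D and CDKN1B were highest in the cells with most MKI67 UMIs. Cells were thinned to 4000 UMIs and divided by their MKI67 UMIs into those with 0, 1, 2 and 3 or more. CDKN2C at D21 was 0.642, 19.8, 22.1 and 48.8 CPM over these bins, and at D14 0.348, 3.802, 5.80 and 15.97 CPM. CDKN2D at D21 was 10.7, 39.7, 40.4 and 96.5 CPM. CDKN1B was 26.0 and 69.5 CPM in the lowest and highest bins at D8, 24.3 and 55.2 at D14, and 17.6 and 65.5 at D21. CDKN1A was lower in the highest bin than in the lowest, at 53.04 against 69.3 CPM at D8, 38.7 against 93.2 at D14 and 66.7 against 142 at D21. The highest bin held 56, 110 and 47 cells at D8, D14 and D21.

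**Figure D3:**
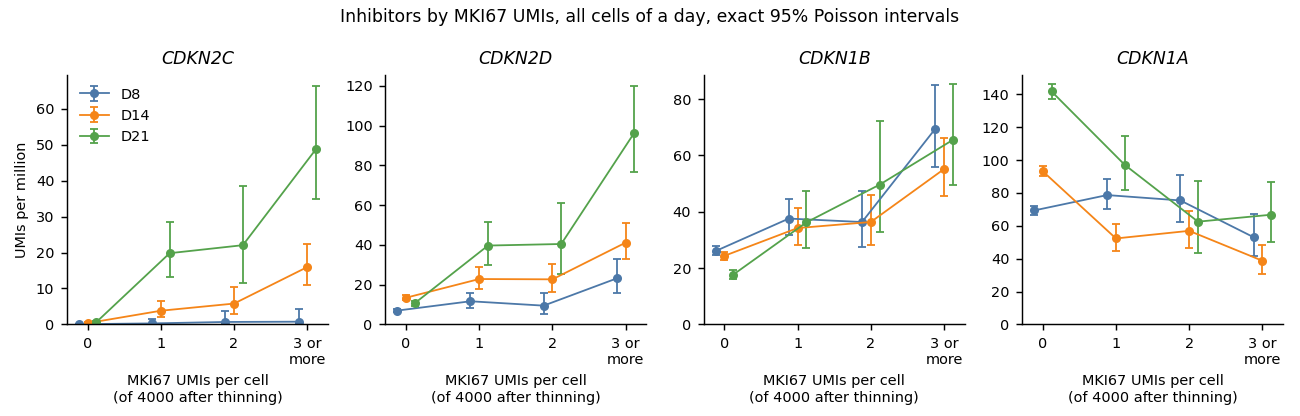
Level of CDKN2C, CDKN2D, CDKN1B and CDKN1A in CPM (vertical axes, from 0) against the number of MKI67 UMIs in a cell after thinning to 4000 (horizontal axes), for all cells of D8, D14 and D21 (colours), with exact Poisson 95% intervals. CDKN2C and CDKN2D are highest in the D21 cells with 3 or more MKI67 UMIs, at 48.8 and 96.5, while CDKN1A at D14 and D21 is highest in cells with 0.

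Phase scores, computed without the 10 genes and MKI67, gave the same inhibitors their highest levels in G2/M. At D21 CDKN2C was 0.454 CPM in cells called G1, 2.82 in S and 31.9 (25.2 to 39.9) in G2/M. CDKN2D was 9.99, 12.9 and 67.6 CPM in these phases. CCND1 had its highest level in S at all 3 days, at 86.8 CPM at D8, 107 at D14 and 136 at D21. These calls can also read free RNA in the droplets, and phases were compared as a description only. Each phase pools all cell groups of a day, and CCND1 at D8 ranged from 10.4 to 191 CPM between groups. The part of group make-up in the phase levels was not tested.

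In cells with MKI67, 1 of 7 genes tested rose from D8 to D14, CDKN1C, from 33.9 to 116 CPM, where 3.28% of 8989 genes rose and 0.879% fell. The same gene was the 1 of 7 that rose in cells without MKI67, from 42.1 to 141 CPM, where 4.05% of 9061 genes rose and 0.662% fell. From D14 to D21 none of 8 passed 2-fold in cells with MKI67 and none of 7 in cells without, beside 3.36% of 9332 and 3.69% of 9237 genes that rose and 2.99% and 4.44% that fell. CDKN2C in cells with MKI67 went from 5.69 CPM at D14 to 20.1 at D21, a log2 ratio of 1.82 (1.34 to 2.30) that was 0.94 with 10 CPM added. CCND3 in cells with MKI67 was 8.35, 18.7 and 37.4 CPM at D8, D14 and D21.

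The other cell cycle lists showed what the MKI67 split separates. Of the later cyclins, 3 of the 4 tested were higher in cells with MKI67 at each day, with CCNB1 at 229 against 6.19 CPM and CCNA2 at 137 against 2.38 CPM at D21. CDK1 was higher at each day, while CDK2, CDK4 and CDK6 were within 2-fold. CKS1B was 409 against 55.1 CPM at D21 and was higher at all 3 days. E2F1 was higher at D14 (19.1 against 3.43 CPM) and D21 (21.0 against 5.05), the only gene of the 10 E2F and DP genes past 2-fold. No p53 target, pocket protein, imprinted neighbour or stress gene passed 2-fold at any day between cells with and without MKI67.

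Within CM-like cells, 32, 45 and 44 cells had a MKI67 UMI at D8, D14 and D21, and 25, 35 and 30 of these had only 1. None of the genes tested passed 2-fold between CM-like cells with and without MKI67 at any day, with 6 genes tested at D8, 7 at D14 and 6 at D21. At D14 and D21 this group leaves out cluster 16, which met both CM and dividing-cell markers. On those days the 8 dividing-cell markers summed to 835 and 1042 CPM in CM-like cells with MKI67. In cluster 16 cells with MKI67 they summed to 4401 and 7206 CPM. CM-like cells rebuilt by a gate on markers, which takes in cells that carry both kinds of markers, had CDKN2C and CDKN2D past 2-fold at D21 (log2 ratios with 10 CPM added of 1.67 and 1.56). Clustering at resolution 0.4 gave 1.49 and 1.98 for the same genes. Of all genes, 0.421% were higher and 0.102% lower at D8, 0.544% and 0.239% at D14, and 2.31% and 0.202% at D21. CDKN1A at D8 was 88.9 CPM (68.1 to 114) with MKI67 and 53.3 (48.2 to 58.8) without, the reverse of D21, where it was 110 (84.8 to 141) and 157 (148 to 167). The D21 level without MKI67 includes the single cell with 106 CDKN1A UMIs. CM-like cells without MKI67, which are 471, 1086 and 494 of the CM-like cells and so nearly the whole group, gave the same calls between days, with CDKN1A and CDKN1C rising from D8 to D14 among 4.98% of genes that did (0.95% fell), CCND1 rising and CDKN1C falling from D14 to D21 (2.76% and 7.45%), and CDKN1A, CCND1 and CCND3 higher at D21 than at D8 (7.04% higher, 7.97% lower). CCND3 was no longer past 2-fold in CM-like cells with 0 UMIs of MKI67, TOP2A and CDK1 (log2 ratio with 10 CPM added of 0.97).

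**Figure D4:**
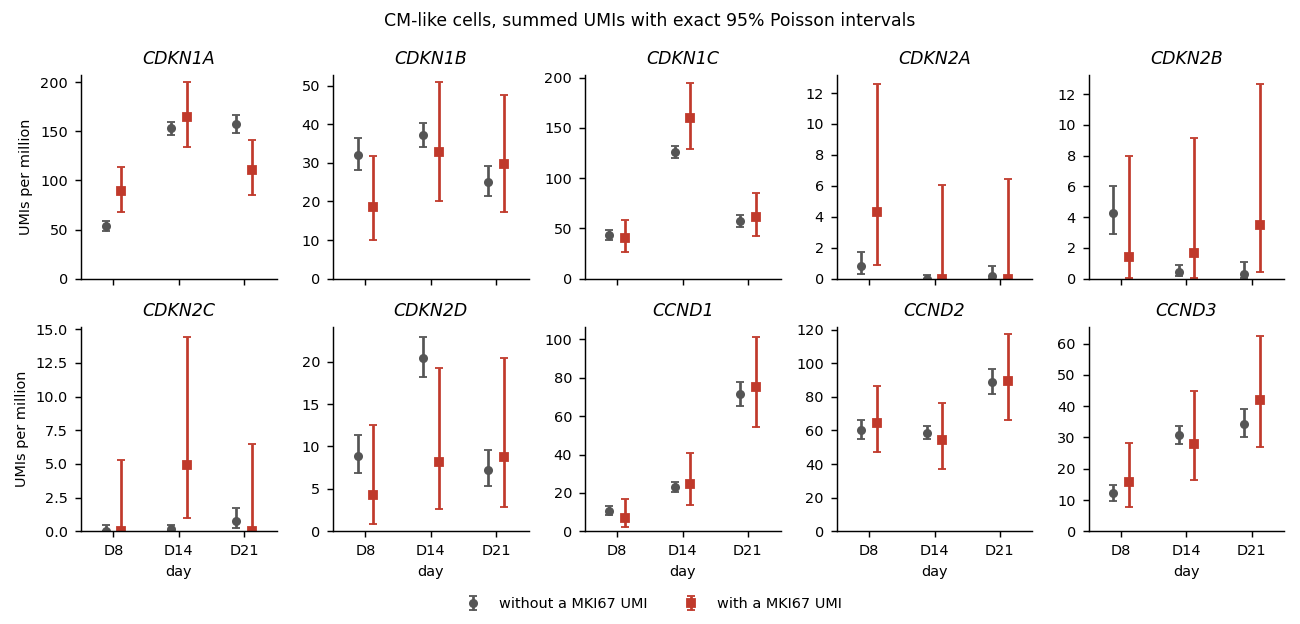
Level of each gene in CM-like cells in CPM (vertical axes, each from 0) at D8, D14 and D21, in cells without (grey circles) and with (red squares) a MKI67 UMI, with exact Poisson 95% intervals. CCND1 in cells without MKI67, which are nearly all of the group, is at 71.4 at D21 against 10.7 at D8, and the red intervals are wide because they rest on 32 to 45 cells.

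Cluster 16 met 5 of the 8 CM markers beside all 8 dividing-cell markers, was led by ACTA1 and NPPA, and held 58 cells of D14 and 33 of D21, of which 55 and 33 had a MKI67 UMI. Set beside CM-like cells of D21, 3 of 8 genes tested were higher in cluster 16 and 1 lower, where 4.77% of 8761 genes were higher and 1.45% lower. CDKN2C was 42.9 against 0.690 CPM (log2 ratio 5.96, interval 4.55 to 7.70), CDKN2D 129 against 7.32 (4.14, 3.61 to 4.67) and CDKN1B 70.3 against 25.4 (1.47, 0.94 to 1.96). CCND1 was lower, 24.02 against 71.7 CPM (-1.58, -2.46 to -0.82). At D14 the single gene past 2-fold of the 8 tested was CDKN2D, 65.7 against 19.97 CPM (1.72, 1.33 to 2.09), where 3.52% of 9488 genes were higher and 0.538% lower.

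Cluster 15, the dividing cluster of D21 with 4 fibroblast markers, was set beside fibroblast-like cells of that day. CDKN2C was 28.4 against 0.430 CPM (log2 ratio 6.04, interval 4.74 to 7.72) and CDKN2D 48.8 against 15.8 (1.62, 1.25 to 1.98), and these were the 2 of 9 genes past 2-fold, where 3.98% of 8475 genes were higher and 0.153% lower. After thinning, 10.8% (5.71 to 18.1) of cluster 15 cells had a CDKN2C UMI, against 0.235% (0.0285 to 0.846) of fibroblast-like cells, at median depths of 17033 and 12750 UMIs. At full depth the shares were 27.03% and 0.588%. Both clusters were defined without these genes, by other genes of the same cells.

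In the dividing clusters the MKI67 split left few cells on one side. Cluster 9 at D8 had 48 cells without MKI67 and cluster 7 at D14 had 26. CDKN2D was 14.8 against 1.40 CPM in cluster 9 (log2 ratio 3.40, interval 0.88 to 8.72), the 1 of 7 genes past 2-fold there (1.43% of 8624 genes were higher, 0.186% lower). In cluster 7 CDKN2D was 27.2 against 5.64 CPM (2.27, 0.39 to 5.33) and CDKN1A 45.01 against 8.47 (2.41, 0.85 to 4.70), 2 of 7 genes, where 3.03% of 9254 genes were higher and 0.519% lower. The levels without MKI67 rested on 1, 2 and 3 UMIs in turn. In the 9 other splits with at least 20 cells on each side none of the genes passed 2-fold. The share of all genes higher and lower in cells with MKI67 was, at D8, 1.36% and 0.0952% in mesendoderm-like cells, 0.539% and 0.0351% in cluster 0, 1.21% and 0.0372% in cluster 10, and 1.29% and 0.469% in cluster 12. At D14 it was 0.656% and 0.244% in fibroblast-like cells, 2.02% and 0.266% in mesendoderm-like cells, 3.08% and 0.997% in cluster 10, and 0.522% and 0.304% in cluster 2, and at D21 0.89% and 0.581% in fibroblast-like cells.

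The D-type cyclins differed in which gene supplied the UMIs of a group. Summed over CCND1, CCND2 and CCND3, CM-like cells had 83.6 CPM at D8, 112 at D14 and 196 at D21. CCND1 gave 12.4% of these UMIs at D8 (10.0 to 15.1), 20.5% (18.6 to 22.6) at D14 and 36.7% (34.1 to 39.2) at D21, while CCND2 gave 72.7%, 52.2% and 45.5%. None of these intervals overlap between days for CCND1. The share of CM-like cells with any D-type cyclin UMI after thinning was 27.4%, 33.8% and 53.35%.

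CCND1, the D-type cyclin most often linked to growth factor signals, was 10.4 CPM (8.27 to 12.8), 23.0 (20.7 to 25.6) and 71.7 (65.6 to 78.1) in CM-like cells of D8, D14 and D21. It rose from D14 to D21 by 1.64 on the log2 scale (1.44 to 1.84) and was above D8 by 2.79 (2.46 to 3.14). CM-like cells were the lowest of the 7 groups of D8 for CCND1, where cluster 10 had 191 CPM and mesendoderm-like cells 149. CCND2 in CM-like cells was 60.8 CPM (55.6 to 66.4), 58.5 (54.7 to 62.5) and 88.9 (82.2 to 96.1), within 2-fold throughout. CCND3, known from muscle differentiation, was 12.4 CPM (10.1 to 15.1), 30.6 (27.9 to 33.5) and 34.9 (30.8 to 39.5), so that D14 and D21 were both above D8 and overlapped each other. Its D21 to D8 log2 ratio of 1.49 came to 1.00 with 10 CPM added, at the threshold itself.

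Endothelial-like cells, 49, 54 and 38 in number, showed the widest shift. All 7 of their markers present in the table were above the other cells, PECAM1 not being in it. CCND1 was 22.3 CPM (13.4 to 34.9) at D8, 62.5 (44.8 to 84.7) at D14 and 413 (362 to 468) at D21, the highest of any group, and CCND2 was 172 (145 to 202), 80.7 (60.5 to 106) and 71.6 (51.6 to 96.8). From D8 to D14 CCND1 rose and CCND2 fell, 2 of 7 genes tested, where 2.27% of 8759 genes rose and 2.83% fell. The CCND2 call rested on 53 against 146 UMIs and lay at the threshold itself, its log2 ratio of -1.09 being -1.0006 with 10 CPM added. From D14 to D21 CCND1 and CCND3 rose and CDKN2D fell, 3 of 7, where 7.96% of 9024 genes rose and 7.29% fell. CCND1 thus supplied 10.4% of the D-type cyclin UMIs at D8 (6.37 to 15.7) and 78.1% at D21 (73.0 to 82.5). At full depth, without thinning, 34 of 38 cells had a CCND1 UMI at D21.

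Stress genes also differed between the endothelial-like cells of these libraries, with FOS at 308 CPM at D14 and 18.8 at D21 and the 10 listed genes summing to 1577 and 720 CPM. Their part in the cyclin levels was not tested. TFDP1, an E2F partner, was 16.8 and 71.6 CPM at D14 and D21 and E2F1 4.57 and 20.5, and these were the 2 of 7 E2F and DP genes that rose.

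**Figure D5:**
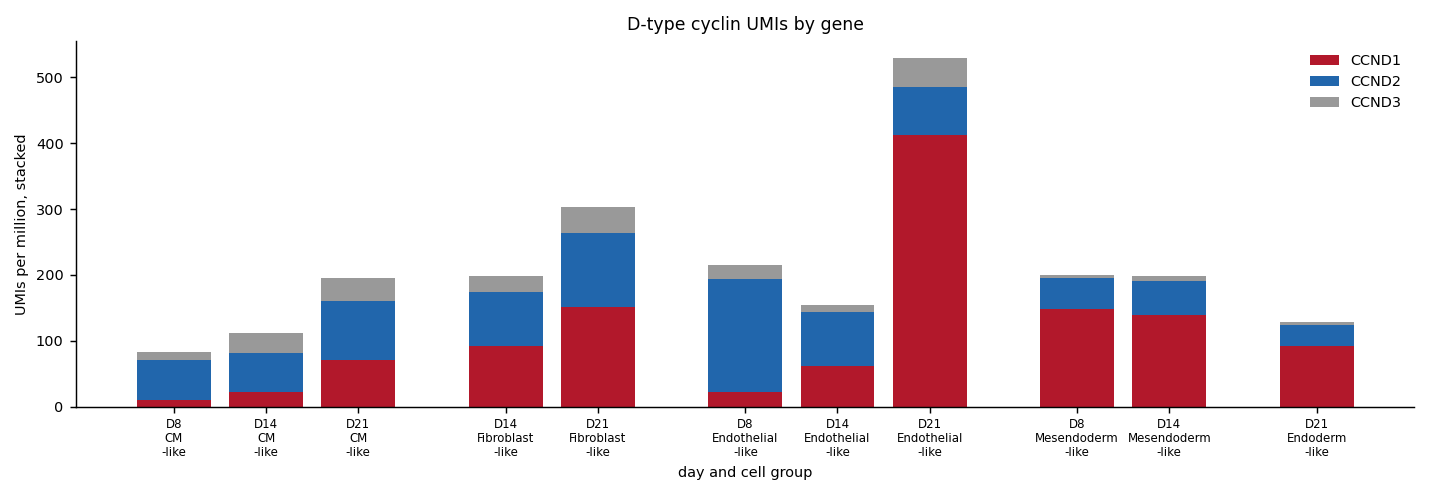
CPM of CCND1 (red), CCND2 (blue) and CCND3 (grey), stacked (vertical axis, from 0), in each named cell group and day. CM-like cells go from 83.6 in all at D8, mostly CCND2, to 196 at D21, and endothelial-like cells reach 529 at D21, of which CCND1 is 78.1%.

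CCND1 gave the largest share in the other named groups, while CCND2 did so in several unnamed clusters, such as cluster 0 at D8 (68.7% against 23.4% for CCND1) and cluster 12 (71.1% against 24.8%). CCND1 gave 74.2% and 70.2% of the D-type cyclin UMIs of mesendoderm-like cells at D8 and D14, 46.7% and 50.1% in fibroblast-like cells at D14 and D21, and 71.6% in endoderm-like cells at D21. CCND1 in fibroblast-like cells was 92.5 CPM at D14 and 152 at D21, and no gene of the 8 tested passed 2-fold between these days, beside 3.03% of 8842 genes that rose and 3.87% that fell. CCND2 had its highest value in unnamed cluster 0 at D14 (191 CPM), a cluster led by EBF2 with 38 cells on that day. A single cell held 28 of these UMIs, or 19.2%. The D8 endothelial-like level was 172 CPM with an interval of 145 to 202, which holds the cluster 0 value. Fibroblast-like cells at D14 exceeded CM-like cells in CCND1 (92.5 against 23.0 CPM, log2 ratio of CM-like over fibroblast-like cells -2.00, interval -2.20 to -1.82), a gap past 2-fold among the 4.5% of genes lower in CM-like cells. CM-like cells of D21 exceeded endoderm-like cells in CCND2 (88.9 against 31.5 CPM) and CCND3 (34.9 against 5.05 CPM), 2 of 6 genes tested, where 16.5% of 8790 genes were higher and 10.2% lower.

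The genes with the most similar pattern over the 25 groups were LAMP1 (Pearson r = 0.67), CALR (0.65) and DLK1 (0.65) for CCND1, and FAM126B (0.66), FGFR1OP2 (0.65) and RNF7 (0.62) for CCND2. These were weaker likenesses than those of CDKN1C or CDKN2D.

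The kinases and pocket proteins did not pass 2-fold in CM-like cells between all days. CDK4 was 120 CPM at D8, 76.5 at D14 and 64.6 at D21, and CDK6 87.5, 64.7 and 60.3. RB1, which encodes the retinoblastoma protein, was 24.5, 35.1 and 42.4 CPM. The later cyclins were low in these cells, with CCNB1 at 12.4, 8.41 and 9.39 CPM, and none passed 2-fold. Of the E2F and DP genes, E2F3 was 37.8, 27.8 and 12.2 CPM and was the 1 of 5 tested that fell from D8 to D21. Over all cells of a day, CDKN1C was the 1 of 7 genes that rose from D8 (39.7 CPM) to D14 (136), where 3.87% of 9105 genes rose and 0.67% fell. None of 7 passed from D14 to D21 (3.66% of 9333 genes rose, 3.91% fell), and CCND3 was the 1 of 7 higher at D21 (29.8 CPM) than at D8 (9.86), where 7.56% of 9155 genes rose and 4.5% fell. Over all cells these levels also move with the make-up of the groups, and more cells of a type cannot be told apart there from more RNA per cell.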

How the data were processed

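Droplet 3′ RNA libraries (1 per day) of CCO cells were used. Per the submitters' processing notes, the authors made the deposited table of UMI counts with Cell Ranger on hg19 and used Seurat 3.2.1. The values are whole UMI counts per gene and barcode, with no normalization. A barcode was kept if it had above 2000 and below 7500 genes, with mitochondrial UMIs under 10%. The kept cells had 4007 to 95021 UMIs. Doublets were not removed. Cells were clustered with Seurat 5.3.0 (R 4.3.3, resolution 0.8). The 10 genes, MKI67, Seurat's S and G2/M gene lists and lists such as the p53 targets and stress genes were left out of the variable genes. A cluster was named by markers, with the naming thresholds set after seeing the data. Levels, exact Poisson intervals and log2 ratios with exact (Clopper-Pearson) intervals were computed with Python 3.11.15 and scipy 1.17.1, and groups of fewer than 30 cells were left out. Shares were taken after thinning each cell to 4000 UMIs. A gene counted as changed at 2-fold with 10 CPM added, at 10 CPM or more in either group. No p-values were computed. edgeR 4.0.16 supplied TMM factors only, and the code was tested on simulated data.

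The members and lists were chosen with earlier results of these data known. Named genes were the 10 members, the 2 genes of each list with the largest log2 ratio in a comparison, and, for members at 50 CPM or more in a group, the 3 genes with the highest Pearson r. Added after seeing the data were the comparisons of cells with MKI67 between days, cluster 16 with CM-like cells and cluster 15 with fibroblast-like cells, CDKN1C in cells with 0 FOSB UMIs, and the runs without cluster 19 and without the top cell.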

Additional observations from a re-analysis of the deposited data

Results flagged for a closer look

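In 3 genes the difference between cells with and without a MKI67 UMI, over all cells of a day, had opposite signs on different days. The difference between days was not tested, since each day is a single library. The log2 ratio of CDKN1A, with over without MKI67, was 0.17 (interval 0.06 to 0.28) at D8, -0.52 (-0.64 to -0.41) at D14, and -0.64 (-0.79 to -0.49) at D21, from 75.7 against 67.3, 65.0 against 93.5 and 92.1 against 143.5 CPM. That of CCND1 was 0.74 (0.63 to 0.85) at D8, 0.52 (0.41 to 0.63) at D14, and -0.34 (-0.50 to -0.19) at D21, from 85.3 against 51.0, 82.5 against 57.4 and 92.3 against 117 CPM. That of CCND3 was -0.33 at D8 (-0.65 to -0.02) and 0.39 at D21 (0.14 to 0.63), from 8.35 against 10.5 and 37.4 against 28.6 CPM. At D8 the sign for CDKN1A and CCND1 also depended on how many MKI67 UMIs a cell had. CDKN1A was 69.3, 78.7, 75.4 and 53.04 CPM and CCND1 59.6, 87.3, 41.7 and 48.6 CPM in cells with 0, 1, 2 and 3 or more MKI67 UMIs after thinning. Within D8 groups the CCND1 log2 ratio was -0.57 in CM-like cells (-2.23 to 0.71), -0.36 in mesendoderm-like cells (-0.54 to -0.18), -0.67 in cluster 9 (-1.28 to -0.01), 0.10 in cluster 10 (-0.08 to 0.29), 0.80 in cluster 0 (0.39 to 1.18) and 0.98 in cluster 12 (0.38 to 1.56), so the value over all cells did not hold within several groups. None of these passed 2-fold, and the cell groups that hold the MKI67 cells differ between the days.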

How the results depend on the processing

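No paired analysis was possible because each day is 1 library and the labels give no replicate numbers. Recomputed under alternatives were the day comparisons of CM-like cells and the MKI67 splits over all cells and over CM-like cells. The 16 calls among these gave 127 values under the alternatives. Of these values, 115 still passed 2-fold, and no log2 ratio of a called gene changed sign. Calls in the other cell groups and clusters were not recomputed. From D8 to D14 in CM-like cells, 5 genes rose with 1 CPM added in place of 10 (2 in the report), the others being CDKN2D (1.14), CCND1 (1.08) and CCND3 (1.23). From D14 to D21 the count went from 2 to 1 at clustering resolutions 0.4 and 1.2, with all variable genes kept, with CM-like cells taken by a gate on markers, with TMM or median-of-ratios factors and with mitochondrial genes left out of the total. CDKN1C was lost each time, at log2 ratios with 10 CPM added of -0.99, -0.73, -0.997, -0.87, -0.81, -0.78 and -0.99 against -1.02 in the report. The median of all genes in that comparison was -0.13, and 0.05 and 0.08 with the TMM and median-of-ratios factors. Between CM-like cells with and without MKI67, 1 gene passed at D14 with 1 CPM added (0 in the report), CDKN2D at -1.22, and 2 at D21 at resolution 0.4 and by the gate (0 in the report), CDKN2C (1.49 and 1.67) and CDKN2D (1.98 and 1.56). CCND3 from D8 to D21 was within 2-fold at a 20% mitochondrial limit (0.83), at resolution 0.4 (0.995), by the gate (0.80) and without cluster 19 (0.97), and, in cells without MKI67, with 0 UMIs of MKI67, TOP2A and CDK1 (0.97). CDKN1B over all cells of D21 with over without MKI67 passed 2-fold with 1 CPM added (1.15), with 2 or more MKI67 UMIs (1.06) and with MKI67 read after thinning (1.06), against 0.86 in the report. CDKN1A in CM-like cells of D14 with over without MKI67 was -0.34 without its top cell, against 0.10. A mitochondrial limit of 5% left no CM-like group at D21, and splits by 2 or more MKI67 UMIs in CM-like cells had under 20 cells, so these were not run. Depth limits CDKN2A, CDKN2B and CDKN2C most, which rest on 134, 527 and 176 UMIs in all.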
